A study of Mus musculus with 2 samples.

Results

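Rod phototransduction and outer segment genes were examined in the open chromatin of late retinal progenitor cells (RPCs) with and without Ngn3 overexpression (Ngn3-OE). The 41 genes were chosen by name. They comprised 9 genes of the transduction cascade, 11 of its recovery and calcium feedback, 7 of disc and outer segment structure, 3 of the retinoid cycle and 11 of assembly, trafficking and support. An accessible region was counted for a gene when its summit lay in the gene body or within 10 kb on either side, on the mm10 build and the GENCODE M21 annotation. This rule gave 258 of 117165 peaks in control and 295 of 124935 peaks in Ngn3-OE. In all, 322 of 150435 regions of both libraries belonged to these genes, and 4 of them lay in the windows of both Guca1a and Guca1b, which are neighbours.

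Open chromatin was mapped by ATAC-seq, in which the Tn5 transposase inserts adapters into DNA that nucleosomes leave free. Mouse pups were electroporated in vivo on postnatal day 1 with a control plasmid or a plasmid that overexpressed Ngn3 (Neurog3, a proneural bHLH transcription factor), and GFP-positive retinal cells were sorted 2 days later. Both groups therefore shared the injection, the electroporation, the GFP label and the age, and differed in the Ngn3 plasmid. Each group had 1 library of 50000 sorted cells. The strain, the promoter of the plasmid and the number of pups pooled per library are not given in the sources used here.

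Because each condition was represented by a single library, the conditions could not be compared by a test. The intervals below are 95% intervals of counting error in these libraries, and neighbouring peaks are not independent of each other. The level of a peak is the number of tags piled up at its summit, recovered from the deposited fold enrichment and −log10 p. A tag ratio is the Ngn3-OE tags over the control tags, divided by 0.983, the ratio of the lowest backgrounds of the libraries. Counts of calls use a limit of 1.5-fold in either direction, and a plain comparison of tags carries no such limit. Since the cells were analysed in bulk, more cells with an open region and a region more open in each cell cannot be told apart.

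The median peak had 9 tags in both libraries, so single weak peaks carry wide intervals. At Neurog3 no peak was listed in control, and 1 peak with 1591 tags was listed in Ngn3-OE, where cuts in the genome and in the plasmid cannot be told apart. All 7 progenitor marker genes analysed here (Pax6, Sox2, Hes1, Ccnd1, Lhx2, Rax and Six3) and all 5 markers of photoreceptor precursors (Otx2, Crx, Nrl, Nr2e3 and Prdm1) had a promoter peak in both libraries. Of the 4 pigment epithelium markers, Rpe65 and Tyr had no peak in either library. Pmel had 3 peaks in control and 4 in Ngn3-OE, and Rlbp1 had 5 in each, with 17 and 16 tags at its promoter. In each library, 1 of 4 endothelial and 2 of 4 microglial markers had a promoter peak.

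Rods detect light in the outer segment, a stack of membrane discs on a modified cilium. Light activates the visual pigment, transducin passes the signal to phosphodiesterase 6, cyclic GMP falls and the cyclic GMP-gated channel closes. Arrestin, a receptor kinase, a GTPase-activating complex and calcium-sensing proteins end the response. Most of these genes are switched on as rods mature, under the homeodomain factors OTX2 and CRX and the factors NRL and NR2E3. In the mouse the outer segments form later than the age sampled here.

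The sequences below come from the regions on which the comparison turns, each read from GRCm38 (mm10) over at most 75 bases on either side of the peak summit, stopped at annotated exons and written 5′ to 3′ on the strand of the gene. Capitals mark GGATTA or its complement TAATCC, the core of OTX and CRX sites, and CATCTG or its complement CAGATG, the core of the E-box bound by proneural factors. At the promoters of the genes themselves, 18 shared regions had tags at least 1.5-fold higher in Ngn3-OE. Of these, 8 held an OTX/CRX core within 100 bp of the summit. The first 7 sequences are these regions with the core, except that of Pde6a. They lay at chr8:95306586-95306683 (Cngb1, minus strand), chr11:67695196-67695325 (Rcvrn, plus strand), chr1:59161637-59161715 (Mpp4, minus strand), chr14:63992336-63992486 (Rp1l1, plus strand), chr3:30746073-30746223 (Samd7, plus strand), chrX:142196945-142197095 (Gucy2f, minus strand) and chr17:28364567-28364717 (Tulp1, minus strand, 426 to 576 bp downstream of a start site).
Cngb1: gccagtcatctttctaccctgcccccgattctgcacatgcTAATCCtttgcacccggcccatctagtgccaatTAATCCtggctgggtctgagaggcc
Rcvrn: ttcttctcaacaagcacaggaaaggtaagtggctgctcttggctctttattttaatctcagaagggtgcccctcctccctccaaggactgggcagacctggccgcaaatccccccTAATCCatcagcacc
Mpp4: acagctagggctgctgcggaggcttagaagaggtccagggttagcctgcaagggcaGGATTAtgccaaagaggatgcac
Rp1l1: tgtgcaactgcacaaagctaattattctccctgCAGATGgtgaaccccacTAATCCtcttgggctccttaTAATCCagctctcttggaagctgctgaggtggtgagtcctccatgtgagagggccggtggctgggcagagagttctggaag
Samd7: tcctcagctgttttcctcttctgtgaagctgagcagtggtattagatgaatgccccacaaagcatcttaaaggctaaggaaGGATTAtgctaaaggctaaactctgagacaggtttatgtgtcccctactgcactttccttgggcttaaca
Gucy2f: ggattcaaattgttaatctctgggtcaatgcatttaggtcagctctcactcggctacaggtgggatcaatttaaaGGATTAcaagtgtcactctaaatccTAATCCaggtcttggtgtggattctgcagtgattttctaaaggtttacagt
Tulp1: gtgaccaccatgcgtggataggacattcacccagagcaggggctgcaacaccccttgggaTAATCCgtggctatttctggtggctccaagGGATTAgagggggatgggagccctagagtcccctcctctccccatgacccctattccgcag

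The next 4 promoter regions show the range beside them. Aipl1, at chr11:72037510-72037625 on the minus strand, holds the core and had a peak only in Ngn3-OE. Rp1, at chr1:4360315-4360425 on the minus strand, holds the core as well and had fewer tags in Ngn3-OE. Impg1, at chr9:80465482-80465602 on the minus strand, and Kcnv2, at chr19:27322403-27322553 on the plus strand, hold neither core in this stretch and were more than 1.5-fold higher in Ngn3-OE.
Aipl1: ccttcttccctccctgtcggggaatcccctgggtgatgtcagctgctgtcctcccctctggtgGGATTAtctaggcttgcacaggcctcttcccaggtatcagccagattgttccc
Rp1: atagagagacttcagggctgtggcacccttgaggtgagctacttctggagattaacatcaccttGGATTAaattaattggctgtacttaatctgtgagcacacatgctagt
Impg1: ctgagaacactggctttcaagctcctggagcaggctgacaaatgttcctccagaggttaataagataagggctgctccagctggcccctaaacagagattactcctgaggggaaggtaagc
Kcnv2: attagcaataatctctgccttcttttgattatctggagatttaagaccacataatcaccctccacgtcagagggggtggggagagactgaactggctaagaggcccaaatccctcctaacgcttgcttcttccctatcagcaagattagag

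The last 2 are distal regions with E-box cores and among the highest tag ratios. The Gnb1 region, at chr4:155522438-155522588 on the plus strand, is intronic and also holds an OTX/CRX core. The Rp1 region, at chr1:4383776-4383926 on the minus strand, lies in an intron of a longer annotated transcript, 23537 bp upstream of the nearest Rp1 start site.
Gnb1 intron: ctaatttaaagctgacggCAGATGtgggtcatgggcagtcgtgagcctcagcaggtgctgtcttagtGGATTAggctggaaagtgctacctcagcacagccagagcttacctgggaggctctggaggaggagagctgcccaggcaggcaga
Rp1 upstream: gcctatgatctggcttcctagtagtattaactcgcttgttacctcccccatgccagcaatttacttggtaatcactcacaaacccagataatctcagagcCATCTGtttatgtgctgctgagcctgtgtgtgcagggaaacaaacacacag

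Of the 322 regions of the rod genes, 258 (80.1%) were listed in control, beside 77.9% of all regions. Of the 258 control peaks, 230 overlapped an Ngn3-OE peak and 28 (10.9%, 7.62% to 15.2%) did not, against a background of 21.7% over all control peaks. Of the 295 Ngn3-OE peaks, 64 (21.7%, 17.4% to 26.7%) had no control counterpart, against 26.6% over all Ngn3-OE peaks. The background of control-only peaks lay above the interval of the rod genes, and that of Ngn3-OE-only peaks lay within it. Both distances from the background changed with the processing. In the 50000 strongest peaks of each list 15.4% were control-only (background 19.8%). With overlap of 50% of both peaks 28.1% were Ngn3-OE-only (background 36.2%), and no intervals were taken for these shares. The rod gene peaks were also stronger, with a median of 14 tags in either library and 9 over all peaks, and the part of this difference in the shares was not tested.

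Every rod gene had at least 1 peak in each library, with a median of 5 peaks in control and 6 in Ngn3-OE. Over all coding genes the median was 4 peaks per window in control. Abca4, the disc flippase of the retinoid cycle, had 19 and 22 peaks, the most of the 41 genes. Rcvrn, the calcium sensor recoverin, had 1 and 2, the fewest. Ngn3-OE had more peaks than control at 22 genes, fewer at 4 (Gnb5, Pdc, Fscn2 and Impdh1) and as many at 15. Over the 17996 coding genes with a peak, 42.4% had more and 24.5% had fewer in the longer Ngn3-OE list. The largest gain was at Prom1, a protein of forming discs, with 12 control and 18 Ngn3-OE peaks and no control-only peak. Peaks listed in 1 library only occurred in both directions at several genes, among them Abca4 with 3 control-only and 6 Ngn3-OE-only peaks.

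**Figure D1:**
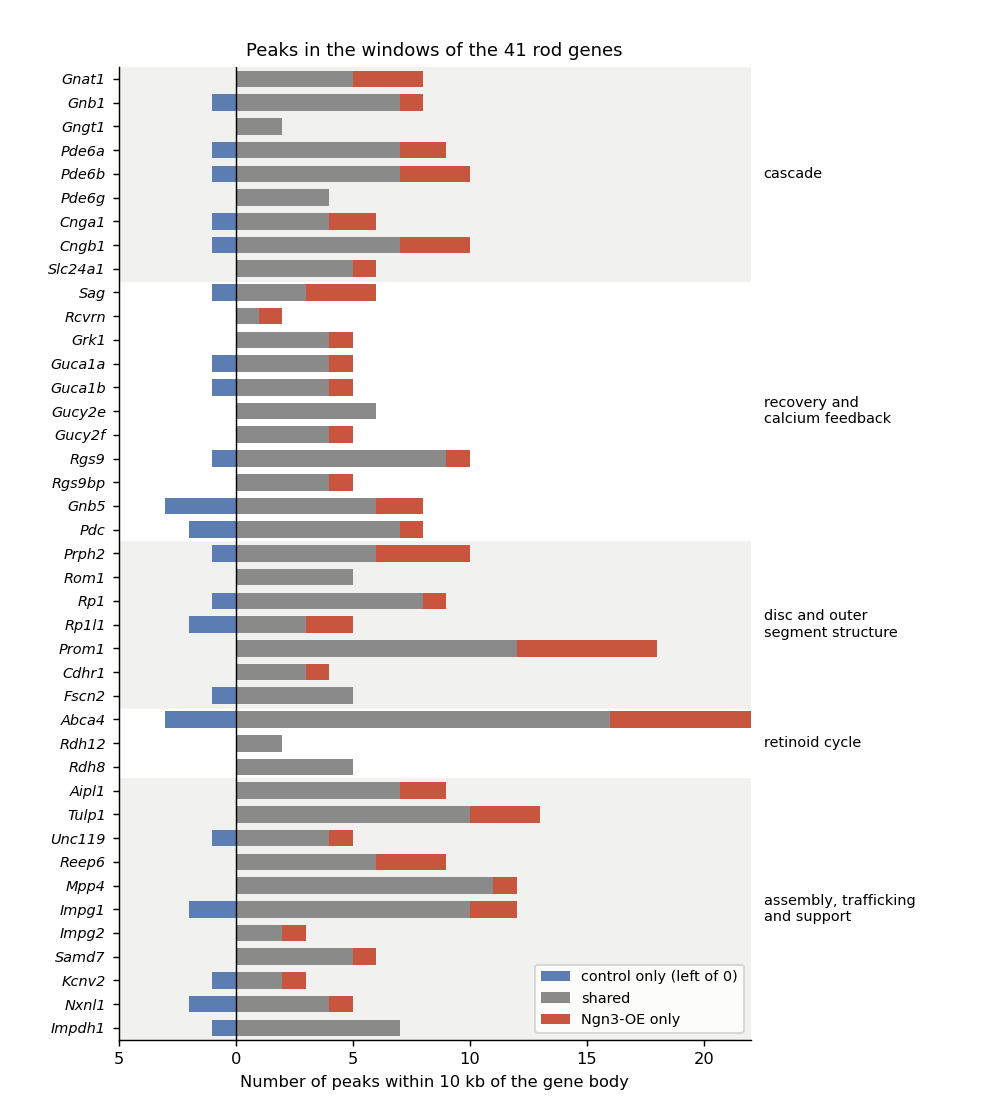
Number of peaks within 10 kb of each of the 41 rod genes, grouped by role, with shared peaks in grey and Ngn3-OE-only peaks in red to the right of 0, and control-only peaks in blue to the left of 0. Shared peaks are counted on the control side, and they outnumber the one-library peaks at most genes, including Abca4 and Prom1.

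The shared peaks of the rod genes had more tags in Ngn3-OE. The median log2 tag ratio of the 230 shared peaks was 0.33 (0.24 to 0.40), or 1.25-fold, and that of all 91741 shared peaks was 0.12, or 1.08-fold. The difference of these medians was 0.21 on the log2 scale. At least 1.5-fold more tags in Ngn3-OE were found at 70 of 230 shared peaks (30.4%, 24.8% to 36.7%), beside 20.7% over all shared peaks. At least 1.5-fold fewer were found at 15 (6.52%, 3.99% to 10.5%), beside 11.3%. When ratios were set to the median of all shared peaks, 53 were higher and 20 lower, with backgrounds of 15.8% and 14.8% (all shared peaks shift by 1.08-fold). Among peaks with at least 30 tags over both libraries, 38 of 132 were higher (background 15.9%) and 3 were lower (background 8.06%).

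**Figure D2:**
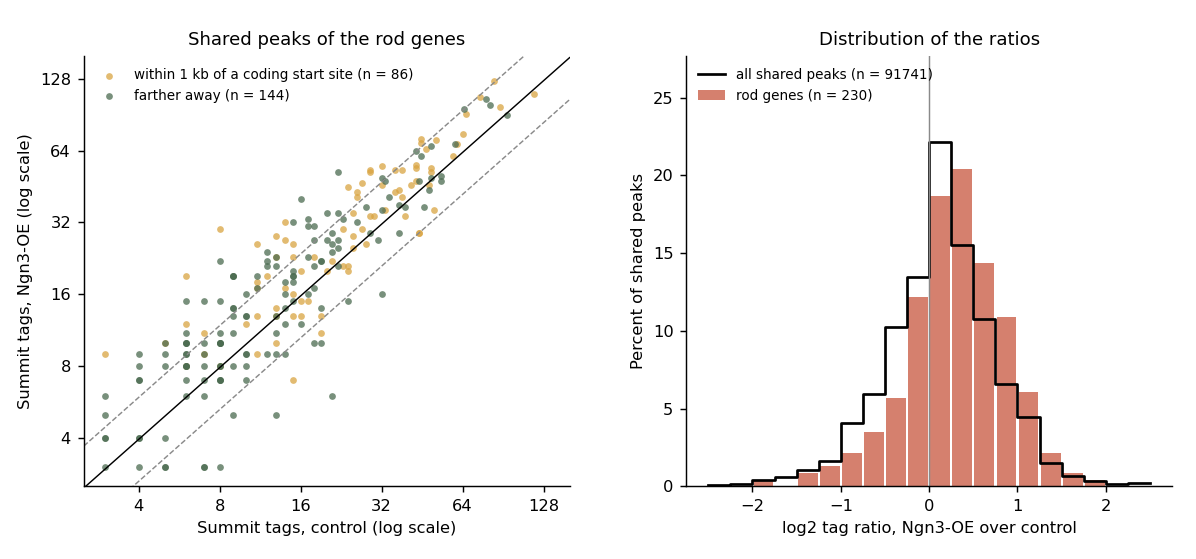
Left, summit tags of each of the 230 shared peaks in control and Ngn3-OE on log scales (gold, within 1 kb of a coding start site; green, farther away), with a solid line at equal levels and dashed lines at 1.5-fold. Right, percent of shared peaks by log2 tag ratio for the rod genes (bars) and all shared peaks (line), where 70 rod gene peaks lie at least 1.5-fold higher and 15 at least 1.5-fold lower.

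Summed over its shared peaks, the tag ratio was above 1 at 37 of 41 genes. The 4 genes below 1 were Fscn2, Guca1a, Reep6 and Impg1. Relative to the median of all shared peaks, 30 genes were above it (29 of the 40 with at least 30 tags, against 42.2% of coding genes), and Gnat1, Cnga1, Gucy2e, Gnb5, Guca1b, Aipl1 and Nxnl1 moved to or below it. Of the 40 genes with at least 30 such tags, 36 were above 1 (90.0%), and the background over 16073 coding genes was 63.8%. The interval lay above 1 at 18 genes, against a background of 8.11%, and below 1 at none. Relative to the median of all shared peaks it lay above at 6 genes (background 2.58%), Pdc, Prom1, Cdhr1, Mpp4, Samd7 and Kcnv2. Only 2 of the 40, Kcnv2 and Samd7, reached 1.5-fold, a call that 2.63% of coding genes met.

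A promoter peak, with its summit within 1 kb of a start site of the gene, was present at 38 of the 41 genes in control and at the same 38 in Ngn3-OE. Over all coding genes these shares were 64.7% and 65.1%. The median promoter level of the rod genes was 26.5 tags in control and 38 in Ngn3-OE, with ranges of 3 to 118 and 7 to 125 tags, whereas the median over all coding genes with a promoter peak was 43 in both libraries. By number of tags alone, Ngn3-OE had more at 31 promoters, fewer at 6 and as many at Gngt1. Of the 13935 coding genes with a promoter peak in both libraries, 52.4% had more and 41.8% had fewer. At least 1.5-fold more tags were found at 14 of 38 promoters (36.8%, 23.4% to 52.7%) against 6.65% of coding genes, and at least 1.5-fold fewer at 0, against 3.75%. With 0 of 38, a share of up to 9.18% remains within counting error. With ratios set to the median of all shared peaks the counts were 10 and 1, against 4.21% and 6.05%.

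Because weak promoters give noisier ratios, the background was also taken over genes of like level. Between the quartiles of the rod gene promoters in control (14.2 and 41.8 tags), 5 of 18 rod genes were at least 1.5-fold higher, against 7.37% of 4421 coding genes, and the median ratio was 1.21 against 1.06. The peaks compared overlapped at 34 of the 38 genes. At Pde6b, Aipl1, Tulp1 and Mpp4 the strongest promoter peak lay at another position in each library.

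**Figure D3:**
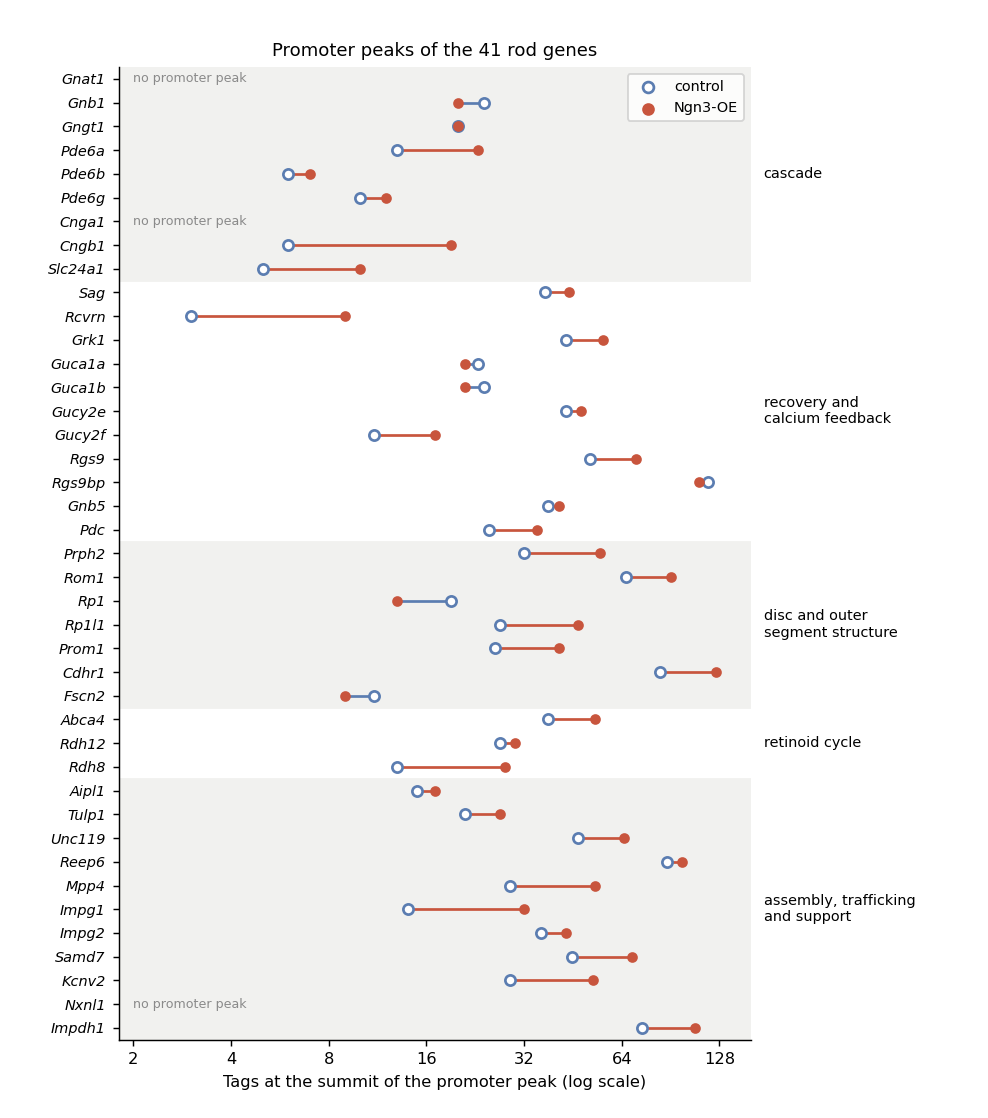
Tags at the promoter peak of each rod gene in control (open blue circles) and Ngn3-OE (filled red circles) on a log scale, grouped by role, with lines coloured by the library with more tags. Ngn3-OE had more tags at 31 of 38 genes, beside 52.4% of coding genes, and Gnat1, Cnga1 and Nxnl1 had no promoter peak in either library.

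Cascade genes had the weakest promoters of the 5 roles, with medians of 10 tags in control and 19 in Ngn3-OE over the 7 genes with a promoter peak. Of their 48 shared peaks, 15 (31.2%) were at least 1.5-fold higher and 1 (2.08%) was at least 1.5-fold lower, beside the 20.7% and 11.3% of all shared peaks. Cngb1, the beta subunit of the rod cyclic GMP-gated channel, had 6 tags in control and 19 in Ngn3-OE at its promoter, a ratio of 3.22 (1.24 to 9.85). Its partner Cnga1 had no promoter peak in either library, but an intronic region 1040 bp upstream of the nearest Cnga1 start site had 22 and 35 tags. The annotated gene body extends past that start site and this region, and its outer end was not among the start sites searched. The promoter of Slc24a1, the sodium/calcium-potassium exchanger of the rod, had 5 and 10 tags. Control was lower at both promoters, but the interval for Slc24a1 (0.63 to 7.58) includes 1.

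Among the subunits of phosphodiesterase 6, the promoter of Pde6a had 13 tags in control and 23 in Ngn3-OE, and that of Pde6g, the inhibitory subunit, had 10 and 12. Pde6b had a promoter peak 952 bp downstream of its start site with 6 tags in control, and one 28 bp upstream with 7 tags in Ngn3-OE. All 3 subunit genes lay below the median promoter level of the rod genes in both libraries, and their intervals include 1.

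The transducin genes differed from one another. Gnat1, the rod alpha subunit, had no promoter peak in either library. A region in a Gnat1 intron, 3567 bp downstream of the start site at chr9:107676069-107676204, had 32 tags in control and 16 in Ngn3-OE, a ratio of 0.51 (0.26 to 0.95), the lowest of the shared peaks with at least 30 tags. Another region within 10 kb of Gnat1, at chr9:107668106-107668301, had 11 and 26 tags, but its nearest start site is that of Slc38a3. Gnat1 also had 3 Ngn3-OE-only peaks, with 5, 8 and 5 tags. Gnb1, a beta subunit that many tissues use, had 24 and 20 tags at its promoter and 16 and 40 in the intronic region printed above, a ratio of 2.54 (1.39 to 4.86). Gngt1, the rod gamma subunit, had 20 tags at its promoter in each library.

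The genes of recovery and calcium feedback had stronger promoters, with medians of 37 and 41 tags over 11 genes, and 13 of 49 shared peaks were at least 1.5-fold higher (26.5%, background 20.7%) and 3 lower (6.12%, background 11.3%). Rgs9bp, the membrane anchor of the GTPase-activating complex, had the most promoter tags of the 41 genes in control, 118, and had 111 in Ngn3-OE, but that peak lay 65 bp upstream of a start site of Ankrd27. A second peak 16 bp upstream of Rgs9bp itself had 12 and 19 tags. Rgs9, the catalytic part of the complex, had 51 and 71 promoter tags, a ratio of 1.42 (0.97 to 2.07). Gnb5, its beta subunit, had 38 and 41, and an intragenic peak 838 bp downstream of a Gnb5 start site had 19 and 11, a ratio of 0.59 (0.25 to 1.30).

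Grk1, the kinase that phosphorylates the active visual pigment, had 43 and 56 promoter tags, and Sag, the rod arrestin that then binds it, had 37 and 44. Rcvrn had 3 tags in control and 9 in Ngn3-OE, the lowest control level of the 38 genes with a promoter peak. Its ratio of 3.05 has an interval of 0.76 to 17.5. Pdc, the transducin-binding phosducin, had 25 and 35 promoter tags, and its shared peaks summed to 89 and 126 tags, a ratio of 1.44 (1.09 to 1.91). For most of these genes Ngn3-OE was the higher library by less than 1.5-fold.

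The guanylate cyclases Gucy2e and Gucy2f, which restore cyclic GMP, had 43 and 48 and 11 and 17 promoter tags in control and Ngn3-OE. Their calcium-dependent activators were in the other direction. Guca1a had 23 promoter tags in control and 21 in Ngn3-OE, and Guca1b had 24 and 21, both with intervals that include 1. Summed over shared peaks the ratio was 0.95 at Guca1a and 1.02 at Guca1b, which share most of their peaks. The strongest Ngn3-OE-only peak of the 41 genes by −log10 q (19.2, 16 tags) lay 9970 bp upstream of Guca1a, at chr17:47410523-47410642.

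Genes of disc and outer segment structure had promoter medians of 27 tags in control and 47 in Ngn3-OE over 7 genes, and 15 of 42 shared peaks were at least 1.5-fold higher (35.7%, background 20.7%) and 3 lower (7.14%, background 11.3%). Cdhr1, a cadherin at the edge of forming discs, had 84 and 125 tags at its promoter, a ratio of 1.51 (1.14 to 2.02), and a ratio of 1.48 (1.19 to 1.84) over its shared peaks. Prph2, the tetraspanin of the disc rim, had 32 and 55 promoter tags, and its partner Rom1 had 66 and 91, with ratios of 1.75 (1.11 to 2.79) and 1.40 (1.01 to 1.96). Prph2 was past 1.5-fold and Rom1 was not. The interval of the Rom1 promoter includes the shift of all shared peaks, as do those of the Rp1l1 and Samd7 promoters.

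Rp1 and Rp1l1, which bind the microtubules of the outer segment axoneme, differed in direction at their promoters. Rp1l1 had 27 tags in control and 47 in Ngn3-OE, a ratio of 1.77 (1.08 to 2.96). Rp1 had 19 and 13, a ratio of 0.70 (0.32 to 1.48), whereas its upstream region printed above had 22 and 52, a ratio of 2.40 (1.43 to 4.16). Prom1 had 26 and 41 promoter tags, and its 12 shared peaks summed to 255 and 352 tags, a ratio of 1.40 (1.19 to 1.66). Fscn2, an actin-bundling protein of photoreceptors, had 11 and 9 promoter tags and the lowest summed ratio of the 41 genes, 0.82 (0.58 to 1.17).

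Of the retinoid cycle genes, Rdh8, an outer segment retinol dehydrogenase, had 13 promoter tags in control and 28 in Ngn3-OE, a ratio of 2.19 (1.10 to 4.61). Rdh12, which acts in the inner segment, had 27 and 30. Abca4 had 38 and 53 at a peak 55 bp upstream of its start site and 15 and 7 at a weaker one 468 bp upstream. Of the 23 shared peaks of these 3 genes, 10 were at least 1.5-fold higher (43.5%, background 20.7%) and 1 lower (4.35%, background 11.3%).

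In the group of assembly, trafficking and support, the promoter medians were 32.5 and 52.5 tags over 10 of 11 genes, and 17 of 68 shared peaks were at least 1.5-fold higher and 7 lower (10.3%, background 11.3%). The higher share lay near the background of 20.7%. Kcnv2, a modulatory potassium channel subunit of photoreceptors, had the highest summed ratio of the genes with at least 30 tags, 2.03 (1.35 to 3.10), from 37 tags in control and 74 in Ngn3-OE. Its promoter had 29 and 52, and a region 5016 bp upstream, at chr19:27317494-27317599, had 8 and 22, a ratio of 2.80 (1.20 to 7.26), the highest of the mutual pairs with at least 30 tags. Samd7, a polycomb-associated repressor of genes that rods keep silent, followed with a summed ratio of 1.51 (1.20 to 1.90) and 45 and 69 promoter tags. An intronic region 2140 bp downstream of the Samd7 start site had 65 and 96, with a ratio interval of 1.08 to 2.09. Both genes thus had more tags in Ngn3-OE at the promoter and at another shared region. The interval of the Samd7 promoter (1.06 to 2.32) includes the 1.08-fold shift of all shared peaks, and that of the intronic region starts near it.

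Mpp4, a scaffold protein of the photoreceptor terminal, has several annotated start sites, and 2 of its promoter peaks had 24 and 45 tags and 29 and 53 tags in control and Ngn3-OE. Another, 752 bp upstream of a start site, had 29 and 34. Impg1, a proteoglycan of the matrix around the outer segments, had 14 and 32 promoter tags, a ratio of 2.32 (1.21 to 4.71), but its shared peaks summed to 103 and 100. Its paralogue Impg2 had 36 and 43. The difference at Impg1 was thus seen at its promoter and not over its window.

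Impdh1, which makes guanine nucleotides, had 74 and 108 tags at its strongest promoter peak, a ratio of 1.48 (1.09 to 2.02). An intronic region 6907 bp downstream of a start site had 24 and 15. A flank region 16148 bp downstream of a start site had 21 and 6, a ratio of 0.29 (0.096 to 0.74). Unc119, a carrier of lipid-modified transducin, had 47 and 65 promoter tags and a summed ratio of 1.39 (1.06 to 1.82). Reep6, a membrane trafficking protein, had 88 and 98 promoter tags and a summed ratio of 0.98 (0.80 to 1.21). These 3 genes were among the 10 with the most promoter tags in control, together with Rgs9bp, Cdhr1, Rom1, Rgs9, Samd7, Grk1 and Gucy2e.

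Aipl1, the chaperone of phosphodiesterase 6, had its control promoter peak 711 bp upstream of the start site, with 15 tags in control and 13 in Ngn3-OE. The region 61 bp upstream printed above was listed in Ngn3-OE alone, with 17 tags and a −log10 q of 11.4. Tulp1, a trafficking protein of the photoreceptor cilium, had 21 and 22 tags 2 bp upstream of one start site and 14 and 27 in the printed region 501 bp downstream of another. A control peak with 8 tags at chr17:28351044-28351104, 268 bp upstream of a start site of Tead3, was paired with an Ngn3-OE peak of 30 tags, but that peak also overlapped a stronger control peak of 23 tags, against which the ratio was 1.33 (0.74 to 2.39). It was the 1 shared peak of 230 that was not in a mutual best pair, in which each peak is the strongest overlap of the other, and its ratio of 3.81 rests on the pairing. Nxnl1, the source of rod-derived cone viability factor, had no promoter peak, and the shared peaks in its window summed to 171 and 182 tags. Of these, only an intronic region with 26 and 32 tags was nearest to Nxnl1, and the others were nearest to Tmem221 or Slc27a1.

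Peaks listed in 1 library only were weak, with medians of 5 tags at the 28 control-only and 6 at the 64 Ngn3-OE-only regions, beside 15 and 19 tags at shared peaks. The absence of a call leaves the level in the other library unknown. Ordered by −log10 q, the Ngn3-OE-only peaks after the Guca1a region were an Abca4 intronic region with 14 tags at chr3:122097289-122097399, a Pde6a region 2807 bp upstream with 15 tags, the Aipl1 promoter region, and a Sag intronic region with 8 tags whose nearest coding start site is that of Dgkd. The control-only peak with the highest −log10 q, with 28 tags at chr8:71572909-71573158, lay in the Nxnl1 window but nearest to Slc27a1. In the same order it was followed by a Prph2 intronic region with 12 tags, a region in the shared window of Guca1a and Guca1b with 9, a Cngb1 intronic region with 9 and an Abca4 intronic region with 11. Other one-library peaks had as many or more tags with a lower −log10 q, up to 19 at Reep6 in Ngn3-OE and 14 at Impdh1 in control.

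By location, 63 of the 322 regions lay at promoters of the genes themselves, 31 at promoters of other genes, 131 in introns, 12 in exons and 85 in the flanks, and a start site of a rod gene was the nearest one for 250. The median log2 tag ratio was 0.28 at the 86 shared regions within 1 kb of any coding start site and 0.34 at the 144 farther away. Over all shared peaks it was 0.09 and 0.14. Higher tags were found at and away from promoters, since 26 of 86 near regions and 44 of 144 far regions were at least 1.5-fold higher, beside 12.1% and 23.3% over all. Of the 5 lowest ratios among shared peaks with at least 30 tags, 2 lay at promoters of neighbouring genes, that of Nipal1 in the Cnga1 window and that of Tmem237 in the Mpp4 window, each with 44 tags in control and 29 in Ngn3-OE, a ratio of 0.67 (0.40 to 1.10).

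The OTX/CRX core was found in a larger share of rod gene promoter regions than of all promoter regions. GGATTA, on either strand within 100 bp of the summit, was found in 24 of 94 regions within 1 kb of a start site (25.5%, 17.8% to 35.2%), against 5.15% of all 27100 such regions. In the 63 promoters of the genes themselves the count was 22 (34.9%, 24.3% to 47.2%). Away from start sites it was 48 of 228 (21.1%, 16.3% to 26.8%), and the share over all 123335 distal regions, 17.5%, lay within that interval. The E-box core CATCTG, the SOX core ATTGT and the MAF half-site TGCTGA, the last of the kind bound by NRL, were found in 18.9%, 19.9% and 19.9% of the 322 regions, beside 22.2%, 24.99% and 18.0% of all regions. Of the 6 motif pairs, only CATCTG and TGCTGA shared bases, in 2 regions. Near start sites TGCTGA was found in 18.1% of rod gene regions (11.6% to 27.1%) and 11.4% of all regions. A match is a description of the letters and not of binding.

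**Figure D4:**
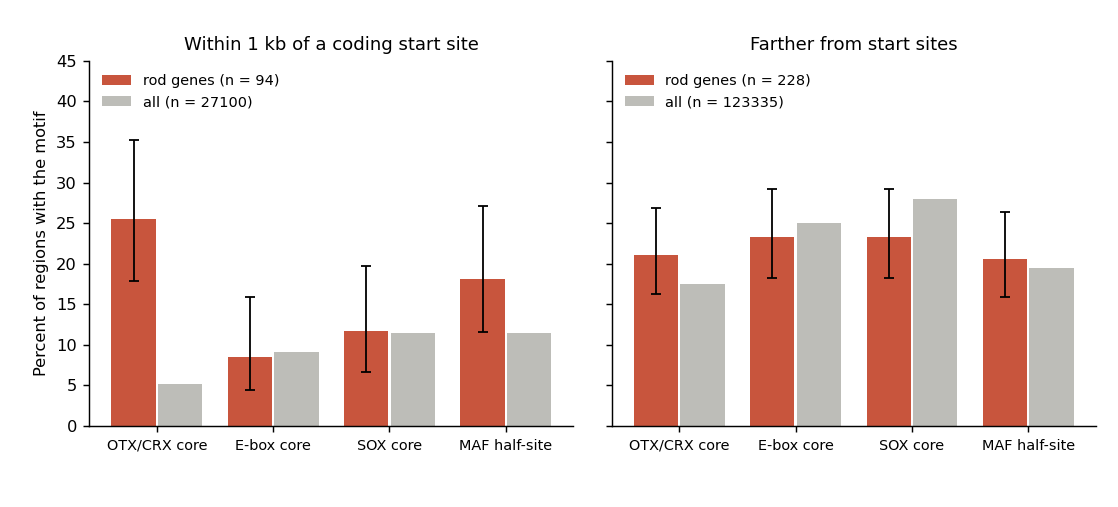
Percent of regions with each of 4 motifs within 100 bp of the summit, for the rod genes (red) and all regions (grey), near start sites (left) and farther away (right). Error bars are 95% Wilson intervals of counting, and the OTX/CRX core near start sites is at 25.5% for the rod genes and 5.15% for all regions.

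The same contrast was seen in promoter sequence taken without regard to peaks. RefSeq promoters on GRCm38, which span 250 bases before to 50 after the start, were matched for 31 of the 41 genes, and 13 of them held GGATTA (41.9%, 26.4% to 59.2%), against 7.56% of 17492 coding genes. It lay 58 and 25 bases upstream of the Cngb1 start site, 57 upstream of Guca1a, 42 upstream of Gucy2e and 58 upstream of Abca4. The median CpG observed over expected was 0.308 in these promoters and 0.565 over all, and the part of base composition in the motif shares was not tested.

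Shared rod gene regions with GGATTA had a median log2 tag ratio of 0.44 (62 regions), and those without had 0.26 (168 regions). Over all shared peaks the values were 0.35 and 0.05. Of the 70 regions at least 1.5-fold higher, 25 held GGATTA (35.7%, 25.5% to 47.4%), and of the 145 within 1.5-fold, 34 did (23.4%, 17.3% to 31.0%), so the intervals overlap. Over all shared peaks these classes held it in 24.9% and 13.3%. Of the 15 at least 1.5-fold lower, 3 held it, beside 7.38% over all. At Rp1 and Guca1a the core was present and the tags were not higher. CATCTG was found in 13 of the 70 (18.6%, 11.2% to 29.2%), beside 26.8% over all peaks at least 1.5-fold higher. Of the 64 Ngn3-OE-only regions, 18 held CATCTG (28.1%, 18.6% to 40.1%) and 8 held GGATTA (12.5%, 6.47% to 22.8%), beside 25.3% and 19.95% of all Ngn3-OE-only regions.

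Other photoreceptor genes were compared as lists. The 10 cone and other paralogues of the cascade, such as Gnat2, Pde6c and Arr3, had a summed tag ratio of 1.13 (1.05 to 1.22), and 11 further photoreceptor genes, such as Rbp3, Crb1 and Cacna1f, had 1.10 (1.03 to 1.17). The 41 rod genes had 1.23 (1.19 to 1.28), beside 1.24 (1.17 to 1.32) for 7 rod fate factors. Nrl, the factor that sets rod identity, had 43 and 63 promoter tags, Crx had 88 and 118, Nr2e3 had 10 and 24, Otx2 had 16 and 26, and Prdm1 had 63 and 82. Rorb had 131 and 124, and Neurod1 had 95 in each library. Of the 47, 89 and 70 shared peaks of the 3 lists, 14 (29.8%), 21 (23.6%) and 23 (32.9%) were at least 1.5-fold higher and 3 (6.38%), 9 (10.1%) and 4 (5.71%) lower, beside 20.7% and 11.3% of all shared peaks.

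Marker lists of other cells lay on both sides of 1. The summed ratio was 1.31 (1.22 to 1.42) for photoreceptor precursors, whose 5 genes are also among the rod fate factors, 0.93 (0.86 to 1.001) for the 7 progenitor genes, 0.88 (0.78 to 0.99) for Müller glia, 1.17 (0.98 to 1.40) for ganglion cells, 1.17 (0.99 to 1.40) for microglia, 0.68 (0.56 to 0.82) for endothelium and 0.95 (0.83 to 1.10) for pigment epithelium. These sums hide differences between genes. Among progenitor genes, Pax6 was at 0.76 (0.64 to 0.91) and Six3 at 0.69 (0.58 to 0.83), whereas Lhx2 was at 1.28 (1.05 to 1.56) and Rax at 1.18 (1.01 to 1.37). The endothelial value rests on Kdr at 0.53 (0.41 to 0.69), since Pecam1 was at 0.87 (0.59 to 1.28), Cdh5 was at 1.04 (0.66 to 1.65) and Tie1 had no shared peak. Of the Müller glia genes, Slc1a3 at 0.76 (0.64 to 0.91) alone had an interval below 1, with Glul at 0.92, Rlbp1 at 1.07 and Aqp4 at 1.28. The pigment epithelium value comes from Pmel and Rlbp1, and Rlbp1 is also in the Müller glia list. Promoter peaks numbered 3 of 4 in each library for ganglion cells and 4 and 3 of 4 for Müller glia. The part of these differences in the higher tags of the rod genes was not tested.

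**Figure D5:**
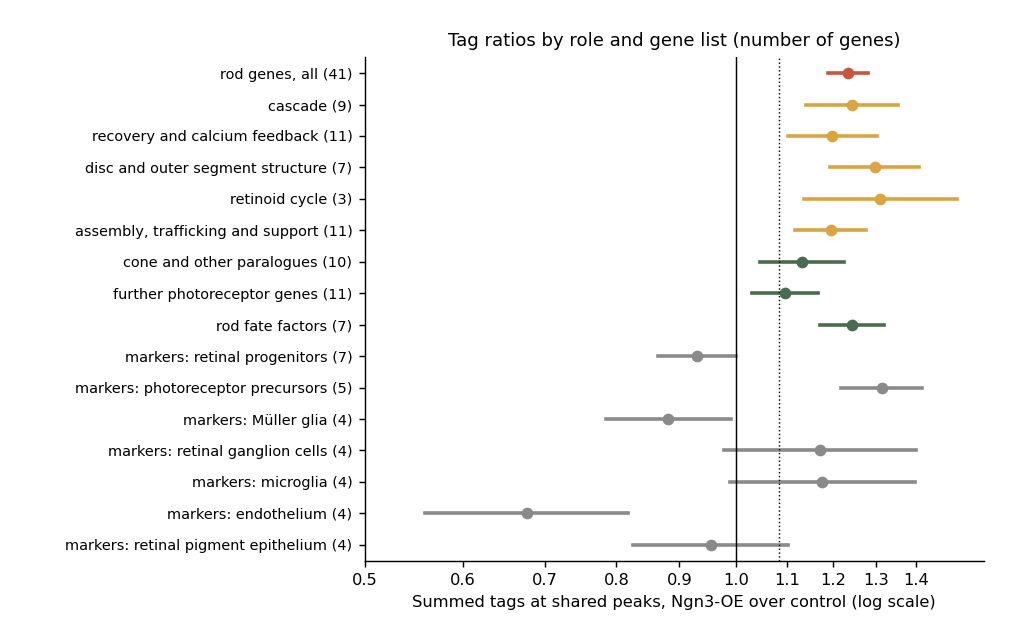
Summed tags at shared peaks in Ngn3-OE over control on a log scale (points) with 95% counting intervals (lines) for the 41 rod genes, their 5 roles, 3 other gene lists and 7 marker lists, with the number of genes in brackets. The solid line is at 1 and the dotted line at 1.08, the median of all shared peaks, and all 5 roles lie above both, while the progenitor, Müller glia, endothelial and pigment epithelium markers lie below 1.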

How the data were processed

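ATAC-seq was analysed in 2 libraries, control and Ngn3-OE, grouped by sample title. The authors trimmed reads with Trimmomatic, aligned them to mm10 with Bowtie2, removed duplicate, mitochondrial and blacklisted reads with Picard, SAMtools and bedtools, kept fragments of at most 120 bp, shifted them by +4 and −5 bp with deepTools and called peaks per library with MACS2 at a q-value limit of 0.05. Each line of the deposited lists holds an integer score, a fold enrichment (the ratio of tags to the local background), −log10 values for p and q, and the summit position. The score was not used further.

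Repeated intervals were reduced to their most significant summit, and only the 21 assembled chromosomes were kept. Fold enrichment and −log10 p together gave the whole number of tags at each summit and its background, with largest residuals of 0.000675 in control and 0.00191 in Ngn3-OE, after a check on simulated peaks. The length to which tags were extended and the read depth are not given in the sources used here. Depth limits each level: the lowest peaks had 3 tags. Peaks sharing at least 1 bp were counted as shared, and the mate was the overlapping peak with the highest −log10 q. Where several peaks lay within 1 kb of a start site, the one with the highest −log10 q in its own library was the promoter peak. Ratio intervals are exact (Clopper-Pearson), shares have Wilson intervals and medians have order-statistic intervals, all at 95% and for counting error only. No test across features was run, and no differential regions of the authors were used.

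Genes with values named in the text were those without a promoter peak, the 10 with the most control promoter tags, the 6 highest and 6 lowest summed ratios with at least 30 tags, the 5 peaks of each one-library set with the highest −log10 q, the 5 highest and 5 lowest shared ratios with at least 30 tags, and those with the most and fewest peaks. Other members were added by role. The members, lists and rules were chosen with earlier results of these data known. One further gene of the progenitor marker list is not reported here and enters none of the values. Alternatives were other thresholds, windows, overlaps, list lengths and scalings. Python 3.11.15, pandas 2.3.3, NumPy 2.4.6, SciPy 1.17.1, pysam 0.24.0 and matplotlib 3.10.9 were used.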

Additional observations from a re-analysis of the deposited data

How the results depend on the processing

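Of 113 recomputed values, 78 stayed within 1.5 times (counts) or within the counting interval (shares and medians) of the value given, 35 moved and 0 reversed. No paired analysis was possible because each group had 1 library, and leaving out a library would leave no comparison.

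Shares over all peaks follow as backgrounds. At a −log10 q of at least 5, 18 of 194 control and 42 of 219 Ngn3-OE peaks were in 1 library only (18.3% and 23.0%), and 46 of 176 shared peaks were at least 1.5-fold higher and 5 lower (16.3% and 8.45%). Against the backgrounds of the whole lists (21.7%, 26.6%, 20.7% and 11.3%), gene bodies alone gave 17 of 130 and 38 of 153 peaks in 1 library only, with 37 of 113 higher and 9 lower, and a 50 kb flank gave 78 of 569 and 136 of 628, with 134 of 491 higher, 27 lower and GGATTA in 17.4% of regions. With overlap of 50% of both peaks, 46 of 258 peaks were control-only (32.02%) and 83 of 295 were Ngn3-OE-only (36.2%). Shared were 82.2% of control and 71.9% of Ngn3-OE peaks. In the 50000 strongest peaks of each list, 23 of 149 were control-only (19.8%) and 28 of 155 Ngn3-OE-only (19.9%), and 84.6% of the control peaks were shared. Set to the median of all shared peaks, the median log2 ratio was 0.21. With at least 30 tags, 38 of 132 peaks were higher and 3 lower (15.9% and 8.06%). Motif windows of 50 bp and 250 bp gave 17.4% and 28.0% for GGATTA, 12.1% and 37.6% for CATCTG, 9.32% and 44.4% for ATTGT and 8.39% and 34.5% for TGCTGA. Shares over all regions were not taken at these 2 windows, so they give no comparison with a background. At 100 bp GGATTA was found in 22.4% of the 322 regions and 15.2% of all regions, the latter being also the background of the 50 kb flank.

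After seeing the data, the 14 of 38 promoters at least 1.5-fold higher were recounted as 10 of 38 with that scaling (background 4.21%). Without the 5 genes that many tissues express they were 13 of 33 (background 6.65%). Where the promoter peaks overlapped they were 13 of 34, and no background was taken for such genes. The 37 of 41 genes with a summed ratio above 1 became 30 of 41 with that scaling and 32 of 36 without those 5 genes. Of coding genes with at least 30 tags, 42.2% were above 1 with that scaling and 63.8% without it. With mutual best pairs, 69 of 229 shared peaks were higher (background 19.9%) and 15 lower (background 11.5%). The variation between animals was not measured.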
